A study of Pyrus hybrid rootstock with 24 samples.

Results

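The step from 1 to 5 days after grafting (DAG) was examined in pear heterografts, in which a scion of QAUP-1 (Pyrus ussuriensis Maxim.) was joined to a rootstock of “Qingzhen D1” (Pyrus communis L. × P. bretschneideri R.). This is the order of the sample titles, whereas the series text names scion and rootstock the other way round. The 3 libraries taken at 1 DAG, the separation stage, are called DSS, and the 3 libraries taken at 5 DAG, the callus formation stage, are called DCF. Genes with an FPKM (fragments scaled by gene length and library size) of at least 1 in at least 3 of these 6 libraries were compared, which kept 24522 of the 42812 genes in the tables. Every graft was a micrograft between tissue-culture plantlets held together by silicon tubing, and RNA came from the stem at the union, so that scion and rootstock RNA entered the same library. Per the study's methods, the grafted plants grew on medium that held sucrose, the cytokinin benzyladenine and the auxin IBA. Responses to these added hormones and to the plants' own hormones cannot be told apart. The 24 libraries of the series, 3 in each of 8 groups, also covered heterografts at 9 DAG (DCD) and 30 DAG (DVC) and homografts of “Qingzhen D1” on itself at the same ages (SSS, SCF, SCD and SVC). With bulk RNA, fewer cells of one kind, less RNA per cell and another ratio of scion to rootstock tissue cannot be told apart. The label of the tissue could not be checked against marker genes, because the gene identifiers came without names.

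A cut stem first seals its wound and then fills the gap with callus, a mass of dividing cells from which cambium and vascular strands later differentiate. Auxin moving down from the scion and cytokinin are the hormones best known for driving these steps. Auxin enters cells through AUX1 carriers, AUX/IAA proteins repress its target genes, and GH3 and SAUR genes are among the targets that respond fastest. Cytokinin signals pass through AHP phosphotransfer proteins to type-B ARR transcription factors, which switch on type-A ARR genes that in turn dampen the signal. These roles are known mainly from Arabidopsis.

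The 6 libraries held 11392075 to 12071398 reads on genes, as recovered from the FPKM values. Across genes, log2(FPKM + 1) correlated at 0.977 to 0.982 among the DSS libraries, at 0.98 to 0.983 among the DCF libraries and at 0.945 to 0.959 between the days. The 10 most abundant genes took 5.43% to 5.75% of the reads. Some groups lay outside the rest of the series for many genes. All 3 DSS libraries lay below the other 21 libraries for 984 genes (4.01% of those tested) and above them for 818 (3.34%), while the DCF libraries did so for 28 and 47 genes. Among homografts, the SSS libraries lay below all others for 1045 genes and above them for 388, and at 30 DAG the SVC libraries for 195 and 393.

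**Figure D1:**
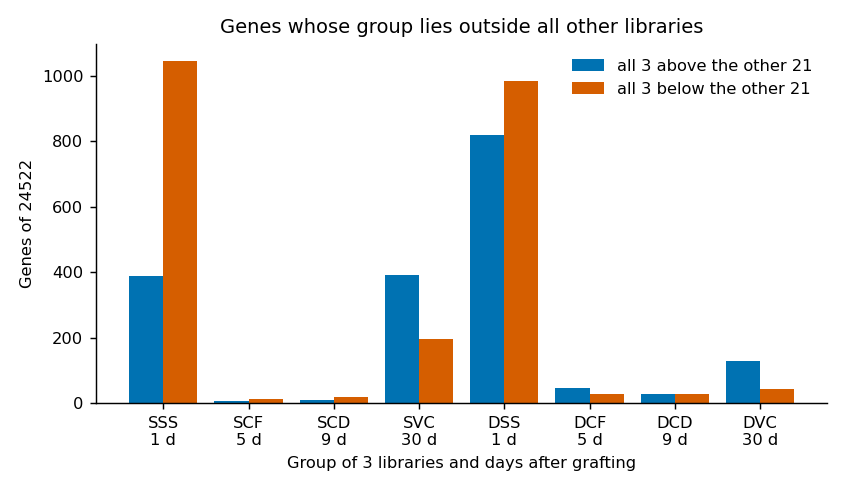
Number of genes, of the 24522 tested, whose 3 libraries of a group all lay above (blue) or all below (orange) the other 21 libraries. The x axis gives the group and its days after grafting. DSS has 818 genes above and 984 below, against 47 and 28 for DCF.

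Between 1 and 5 DAG, 601 genes rose and 440 fell in the heterografts. These were 2.45% and 1.79% of the genes tested, or 4.25% for the 1041 together, called where limma gave a Benjamini-Hochberg adjusted p below 0.05 and the log2 fold change passed 1 or -1. Most changes were moderate. The median log2 fold change of the genes that rose was 1.28, 61 of them exceeded 2 and 7 exceeded 3. The genes that fell had a median of -1.34, with 64 below -2 and 12 below -3. Over all genes tested the median was 0.008. Without the fold threshold, 5755 genes (23.5%) had an adjusted p below 0.05, of which 3009 were higher and 2746 lower at 5 DAG. The 3 and 3 libraries did not overlap for 40.5% of all genes tested, so that lack of overlap alone marked far more genes than the call did.

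**Figure D2:**
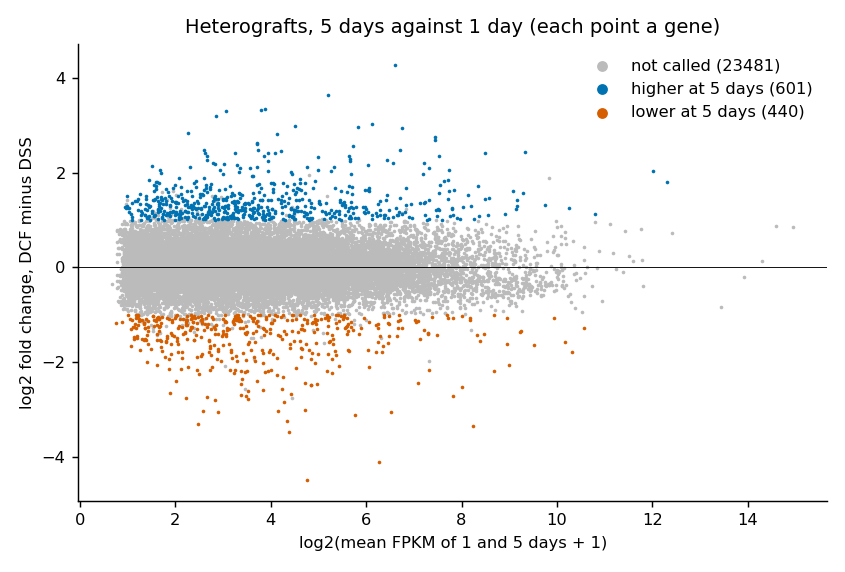
Log2 fold change from DSS to DCF on the scale of log2(FPKM + 1) (y axis) against the mean level of both days (x axis) for the 24522 genes tested. Blue points are the 601 genes that rose and orange points the 440 that fell, and they are found across the range of levels.

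The genes that rose took 1.38%, 1.21% and 1.31% of the reads in the 3 DSS libraries and 3.5%, 3.53% and 3.8% in the DCF libraries. The genes that fell took 2.51%, 2.75% and 2.53% of the reads at 1 DAG and 0.994%, 0.94% and 0.847% at 5 DAG. These shares describe genes that were chosen for the same difference. Of the genes that rose, 85 had a mean FPKM below 1 at 1 DAG, and of those that fell, 84 had one below 1 at 5 DAG. The median coding length was 801 bases for the genes that rose and 816 for those that fell, against 1128 for all genes tested. Among genes above 0 in at least 4 of the 24 libraries, few appeared or vanished. The 2590 genes above 0 in only 1 to 3 libraries had no recovered reads and could not be counted. Taking 3 reads summed over a day's libraries as the floor, 2 genes without a read at 1 DAG had 30 or more at 5 DAG, the larger of them at least 14.4-fold higher. In the other direction 6 genes went from 30 or more reads to none, the largest change being at least 37.5-fold lower.

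The largest fall among well expressed genes was that of Pbr011786.1, a gene to which no role is given here. Its FPKM was 50.28, 59.3 and 43.59 in the DSS libraries and 0.391, 1.59 and 2.333 in the DCF libraries. The log2 fold change was -4.50 ± 0.28 (SE, adjusted p = 1.79e-09). In the homografts it was 16.93, 23.79 and 21.66 at 1 DAG and 0, 0 and 0.7661 at 5 DAG, so it fell in both graft types, and in the heterografts it was listed at 0 in all 3 DVC libraries. It was thus a day-1 transcript in both grafts.

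The other large fall, of Pbr022160.1, was uneven. Its FPKM was 133.6, 109.2 and 151.8 at 1 DAG and 55.08, 3.359 and 0.767 at 5 DAG, with the first DCF library far above the other two. The log2 fold change was -4.12 ± 0.83 (adjusted p = 0.00121) with all libraries, and between -5.56 and -3.07 when 1 library was left out. This gene also fell in the homografts, from 3.258, 19.66 and 10.77 to 0.3607, 0 and 0.2158.

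The largest rise was that of Pbr016407.1. Its FPKM was 9.505, 7.662 and 8.368 in the DSS libraries and 197.7, 161.9 and 191.4 in the DCF libraries, a log2 fold change of 4.28 ± 0.12 (adjusted p = 4.59e-15). In the homografts the gene was already at 240.7, 241.8 and 229.5 at 1 DAG and stood at 196.8, 222.8 and 200.8 at 5 DAG. It was also high in the later heterografts, at 107.1 to 152.9 in DCD and 245.8 to 295.3 in DVC. DSS was therefore the single group of the 6 described in which it was low.

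The rise of Pbr018343.1 was similar in the heterografts. Its FPKM was 2.905, 4.875 and 5.797 in DSS and 63.99, 54.44 and 83.62 in DCF, a log2 fold change of 3.64 ± 0.25 (adjusted p = 7.12e-09). The homografts held 79.65, 175.9 and 125.8 at 1 DAG and 64.03, 75.4 and 61.91 at 5 DAG. Their log2 fold change was -0.84 (limma, adjusted p = 0.017), a fall under the fold threshold. That of Pbr016407.1 in the homografts was -0.20 (adjusted p = 0.232). The 2 genes with the largest falls thus fell in both grafts, and the 2 with the largest rises were not called as risers in the homografts.

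The hormone genes moved unevenly. The study labels 17 auxin and cytokinin signalling genes by identifier, chosen on these samples, so their directions are not independent evidence, and their identifiers were transcribed from a figure, where a misread digit is possible. SAUR and GH3 genes belong to large families whose near-identical copies can share reads, which leaves single members uncertain. Of the 17, 15 passed the filter. One rose and 2 fell, against 2.45% and 1.79% of all genes. An adjusted p below 0.05 at any fold was reached by 4 of the 15, against 23.5% of all genes, a share near the background. Their median log2 fold change was -0.045, against 0.008 for all genes. The libraries of the 2 days did not overlap for 8 of the 15 (53.3%, against 40.5% of all genes tested).

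The strongest hormone change was in Pbr009936.1, one of the SAUR genes, small auxin-induced transcripts linked to cell expansion. Its FPKM was 13.91, 26.09 and 14.74 in DSS and 2.749, 0.8382 and 2.187 in DCF, without overlap. The log2 fold change was -2.73 ± 0.32 (adjusted p = 6.75e-06). The gene was almost silent in the homografts, with 0.2787 as the highest value in SSS and 0.2693 in SCF. It stayed low in the later heterografts, at 1.189 to 3.405 in DCD and 0.2608 to 2.143 in DVC.

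A different SAUR gene, Pbr010681.1, rose from 0.6912, 0.2255 and 0 to 5.028, 4.444 and 1.305 (log2 fold change 1.73 ± 0.46, adjusted p = 0.0097). Its level was low in both days, and the call was lost without the first DCF library, at 1.47. The other SAUR genes tested, Pbr018494.1, Pbr042214.1 and Pbr040904.2, had log2 fold changes of 0.13, 0.12 and -0.04, with overlapping libraries. Pbr023263.2 and Pbr023262.1 did not pass the filter. The first was listed at 0 in all 6 heterograft libraries, and the second was at most 0.2891 in DSS and 1.649 in DCF. Of 7 SAUR genes, then, 1 rose and 1 fell.

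GH3 enzymes join auxin to amino acids and so lower the free hormone. Pbr007550.1 was 4.666, 14.56 and 5.431 at 1 DAG and 2.49, 1.828 and 3.119 at 5 DAG, a log2 fold change of -1.27 ± 0.26 (adjusted p = 0.00136). The second DSS library was the highest by far, and without it the change was -0.81, under the fold threshold. The call was also lost with the replicate block. It fell in the homografts too, from 6.186, 6.265 and 6.162 to 0.8052, 1.064 and 1.129.

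The other GH3 gene, Pbr030688.1, was 5.852, 3.398 and 8.066 at 1 DAG and 2.212, 2.104 and 2.48 at 5 DAG. The libraries did not overlap, but the log2 fold change of -0.99 ± 0.49 had an adjusted p of 0.153. In the homografts the same gene went the other way, from 2.733, 1.622 and 1.482 to 5.751, 6.517 and 6.776, and was called there.

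Genes for auxin uptake and repression did not pass the test. The AUX1 carrier gene Pbr033508.2 was 9.732, 7.929 and 13.66 at 1 DAG and 18.35, 11.93 and 11.97 at 5 DAG (log2 fold change 0.40 ± 0.30, adjusted p = 0.356). The other AUX1 gene, Pbr029742.1, was 3.041, 3.93 and 4.006 and then 3.059, 1.584 and 1.263 (-0.69 ± 0.26, adjusted p = 0.0648). Both overlapped between days. The AUX/IAA repressor gene Pbr033492.1 was 1.654, 4.732 and 3.808 and then 4.949, 8.711 and 5.763, without overlap but with an adjusted p of 0.218 (0.81 ± 0.46).

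In cytokinin signalling, the gene with the clearest change was Pbr012127.1, a type-B ARR, the class of transcription factors that carry out the response. Its FPKM was 37.02, 37.52 and 41.51 in DSS and 66.03, 57.7 and 64.98 in DCF, a log2 fold change of 0.69 ± 0.09 (adjusted p = 2.69e-05). This was under the fold threshold but far outside the spread between libraries. The homografts stood at 69, 81.46 and 81.13 at 1 DAG and 69.4, 59.34 and 67.4 at 5 DAG, and the DCD and DVC libraries ranged from 49.72 to 67.69. DSS was the one group below all of these.

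The type-A ARR genes, which dampen cytokinin signals, were not called. Pbr024916.1 was 55.53, 43.28 and 41.65 at 1 DAG and 31.22, 40.01 and 32.4 at 5 DAG (log2 fold change -0.42 ± 0.20, adjusted p = 0.129). Pbr002919.1 was 23.56, 13.02 and 22.75 and then 13.16, 10.63 and 9.145 (-0.76 ± 0.40, adjusted p = 0.183). Of the 3, Pbr009193.1 was the one with a positive estimate, at 0.28 ± 0.29, from 44.38, 21.42 and 25.27 to 34.29, 41.02 and 31.21. The AHP gene Pbr015522.1, which relays the signal, was 11.04, 5.88 and 8.314 and then 4.229, 2.803 and 4.937, without overlap but with an adjusted p of 0.145 (-0.90 ± 0.44).

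**Figure D3:**
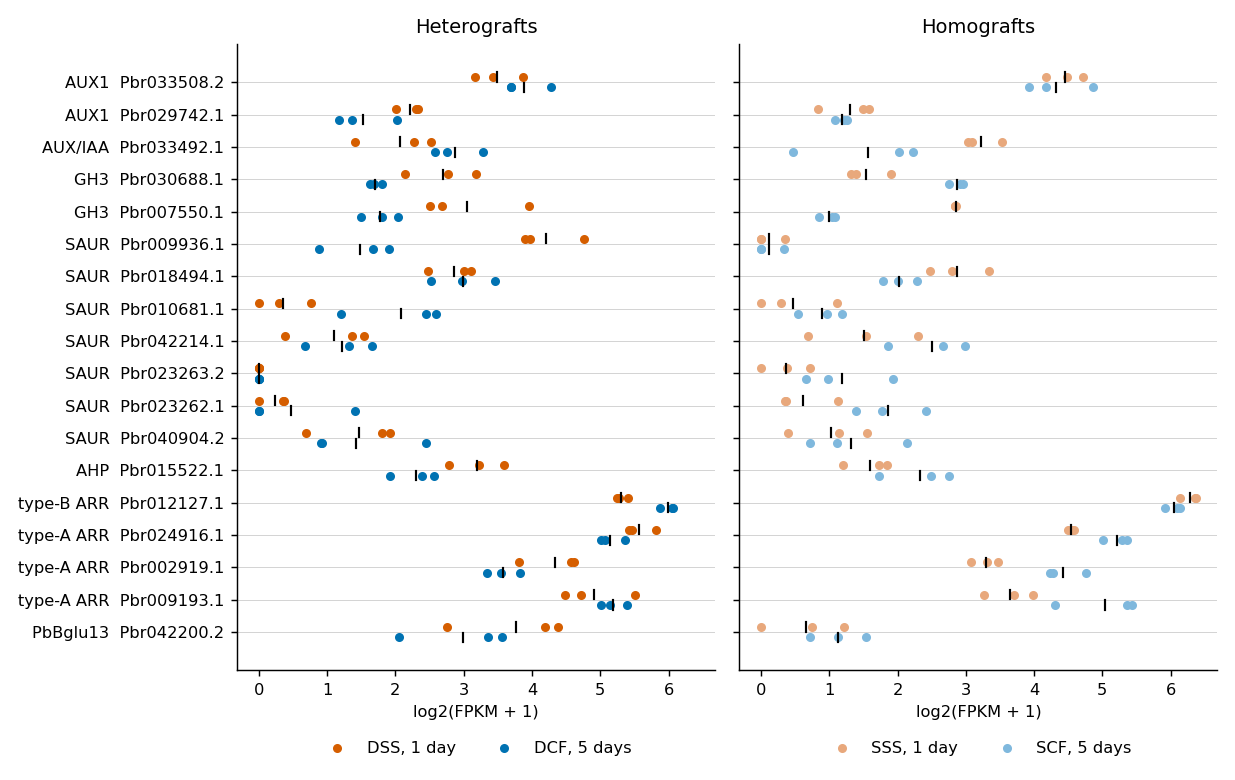
Level of the 17 hormone genes and of PbBglu13 on the scale of log2(FPKM + 1), 1 point per library with the mean as a bar, in heterografts (left: DSS and DCF) and homografts (right: SSS and SCF). The SAUR gene Pbr009936.1 lies between 13.91 and 26.09 FPKM in DSS and below 3 in the other 3 groups shown.

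The β-glucosidase gene PbBglu13 (Pbr042200.2), whose enzyme class releases glucose from β-linked glucosides, was 19.73, 5.744 and 17.18 at 1 DAG and 10.77, 3.16 and 9.204 at 5 DAG. The second library of each day was the lowest and the days overlapped. Each library was lower at 5 DAG than the same-numbered one at 1 DAG. The labels do not say whether the numbers mark pairs, and both tests that follow took the libraries as unpaired. The log2 fold change was -0.78 ± 0.52 (adjusted p = 0.305). It ran from -1.29 without the second DSS library to -0.32 without the second DCF library, and an exact two-sided permutation test of 3 against 3 libraries, which cannot go below 0.1, gave p = 0.3. The homografts were lower in every library on both days, between 0 and 1.335 in SSS and between 0.6374 and 1.896 in SCF. In the later heterografts the gene stood at 7.114 to 8.953 in DCD and 6.243 to 18.44 in DVC.

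All 15 genes that the study took for qPCR were tested, and no role is given here to any of them. The study calls them randomly selected but does not say from which set of genes, so their shares are descriptions. One rose and 3 fell, against 4.25% of all genes called. An adjusted p below 0.05 at any fold was found for 8, against 23.5% of all genes, and 11 did not overlap between days (73.3%, against 40.5% of all genes). The riser was Pbr015699.1, at 13.05, 8.128 and 9.6 in DSS and 44.14, 22.12 and 34.83 in DCF (1.59 ± 0.26, adjusted p = 0.000209). Pbr003641.1 fell from 52.56, 55.62 and 63.48 to 17.75, 17.88 and 22.8 (-1.51 ± 0.17, adjusted p = 3.9e-06). Pbr015152.1 fell from 58.99, 45.72 and 70.27 to 23.85, 22.16 and 23.01 (-1.28 ± 0.20, adjusted p = 0.000106). Pbr036247.1, a low gene, fell from 3.354, 4.189 and 2.885 to 0.5487, 0.6692 and 1.528 (-1.25 ± 0.26, adjusted p = 0.00145).

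To see what the heterograft step shared with healing in general, the same genes were followed over the same days in the homografts, which share no library with it. There 1009 genes rose (4.11%) and 661 fell (2.7%). The 2 sets of log2 fold changes correlated weakly across the 24522 genes (Pearson r = 0.307, Spearman rho = 0.308), as a description, since genes are not independent replicates. The SD of the log2 fold changes was 0.481 in the heterografts and 0.546 in the homografts. Both steps called 341 genes. Of these, 129 rose in both, which was 21.5% of the heterograft and 12.8% of the homograft risers, and 153 fell in both, which was 34.8% and 23.1% of those that fell. A further 20 genes rose in heterografts and fell in homografts, and 39 did the reverse.

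The step itself differed between graft types for 2879 genes, 11.7% of those tested, by the interaction of day and graft (adjusted p below 0.05, limma). For 1211 of them the heterograft change was the higher and for 1668 the lower, and the difference exceeded 1 on the log2 scale for 1503. The 2 estimates had opposite signs for 2113. In 515 both steps had an adjusted p below 0.05, and in 343 of those the directions were opposite. Of the 343, 197 were lower at 5 DAG in heterografts and higher in homografts, and 146 were the reverse. The interaction test picks genes whose 2 changes differ, which favours opposite signs. These counts therefore do not describe the genes tested as a whole.

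**Figure D4:**
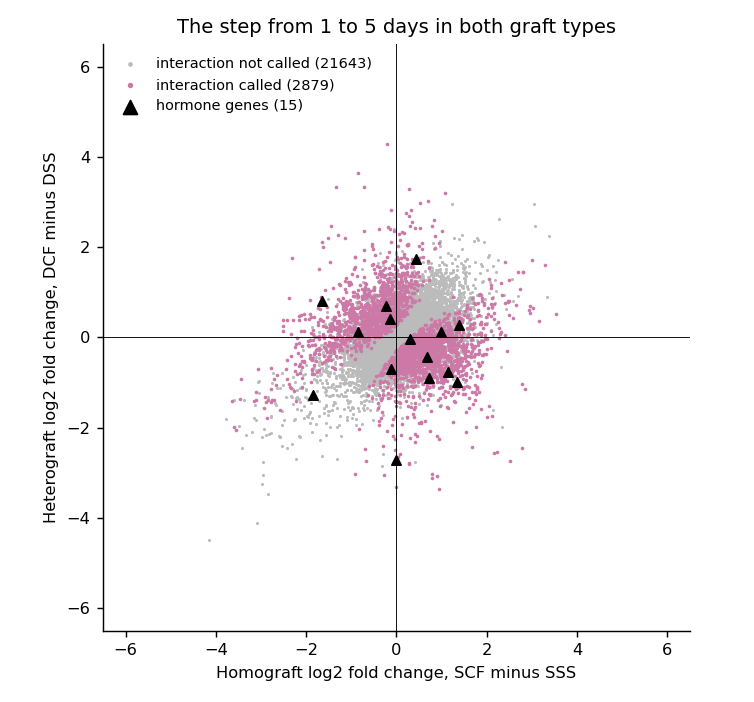
Log2 fold change from 1 to 5 DAG in heterografts (y axis) against homografts (x axis), 1 point per gene. Pink points are the 2879 genes whose step differed between grafts, black triangles the 15 hormone genes tested. The points form a broad cloud with a weak positive slope (r = 0.307).

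Among the hormone genes, 6 of 15 (40.0%, against 11.7% of all genes tested) differed between grafts. The study shows these genes as differentially expressed, from comparisons of heterografts with homografts in these same samples. The share is therefore no independent result. The AUX/IAA gene Pbr033492.1 was called lower at 5 DAG in homografts (from 7.522, 10.52 and 7.212 to 3.688, 0.3799 and 3.074), and its change was higher in heterografts by 2.45 ± 0.64 (adjusted p = 0.0177). The GH3 gene Pbr030688.1 differed by -2.33 ± 0.69 (adjusted p = 0.0337), but lost the call in 9 of the 12 fits with 1 library left out. The SAUR gene Pbr009936.1 differed by -2.72 ± 0.45 (adjusted p = 0.000554), a call that was lost with voom on recovered reads, at -3.22. It had 1 read in all SSS libraries together and 1 in all SCF libraries, too few to measure a homograft step. The call for Pbr033492.1 was lost without the second SCF or the first DSS library (differences of 1.90 and 2.12).

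Of the 5 cytokinin genes, 3 differed between grafts, and the AHP gene Pbr015522.1 (-1.63 ± 0.62, adjusted p = 0.0931) and the type-A ARR gene Pbr009193.1 (-1.10 ± 0.42, adjusted p = 0.0921) did not pass the test. The type-B ARR gene Pbr012127.1 differed by 0.92 ± 0.13 (adjusted p = 0.000112). The type-A ARR gene Pbr024916.1 went from 22.55, 21.52 and 23.05 to 38.11, 31.2 and 40.01 in the homografts, a difference between steps of -1.10 ± 0.28 (adjusted p = 0.0144). Pbr002919.1, also type-A, went from 10.09, 8.956 and 7.442 to 17.71, 18.35 and 26.14, a difference of -1.90 ± 0.57 (adjusted p = 0.0353), which was lost in 8 of 12 fits with 1 library left out. At 1 DAG both of these type-A genes stood higher in heterografts than in homografts in every library, and the type-B gene lower. At 5 DAG the libraries of both grafts overlapped for Pbr024916.1 and for the type-B gene, while those of Pbr002919.1 did not, with 9.145 to 13.16 in DCF and 17.71 to 26.14 in SCF.

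Of the qPCR genes, 6 of 15 (40.0%, against 11.7% of all genes tested) differed between grafts, the 4 called ones among them. The set these genes were drawn from is not stated, and the calls share the DSS and DCF libraries with this test. The share is therefore no independent result. Pbr010535.1 was 16.14, 18.15 and 15.64 in DSS and 8.624, 9.8 and 12.91 in DCF, and in the homografts it went from 5.629, 7.516 and 7.737 to 12.9, 17.74 and 9.825. The difference between its steps was -1.48 ± 0.29 (adjusted p = 0.0027). Pbr039935.1 was 7.564, 9.996 and 8.542 and then 9.526, 14.39 and 12.65 in heterografts, against 19.16, 16.54 and 15.17 and then 12.1, 9.515 and 9.843 in homografts (1.08 ± 0.19, adjusted p = 0.00116). In both genes the 2 graft types moved toward each other.

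The genes called in the heterograft step were followed through the other groups. Those groups entered the fit's estimate of the spread, but not the difference between DSS and DCF. The median FPKM of the 601 risers was 5.06 in DSS and 15.4 in DCF, and the later heterografts held 13.5 (9 DAG) and 16.3 (30 DAG). In the homografts it was 9.81, 12.9, 14.5 and 16.2 in SSS, SCF, SCD and SVC. The median of the fallers was 15.2 in DSS and 4.62 in DCF, against 5.35 and 5.01 in the later heterografts, and 7.74, 4.96, 4.36 and 4.66 in the homografts. Over all genes tested the medians ran from 11.5 to 13.3 over the 8 groups. The DSS and DCF medians are set by the choice of genes. In the homografts, SSS was lower than the later groups for the risers and higher for the fallers, the same directions as in DSS.

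**Figure D5:**
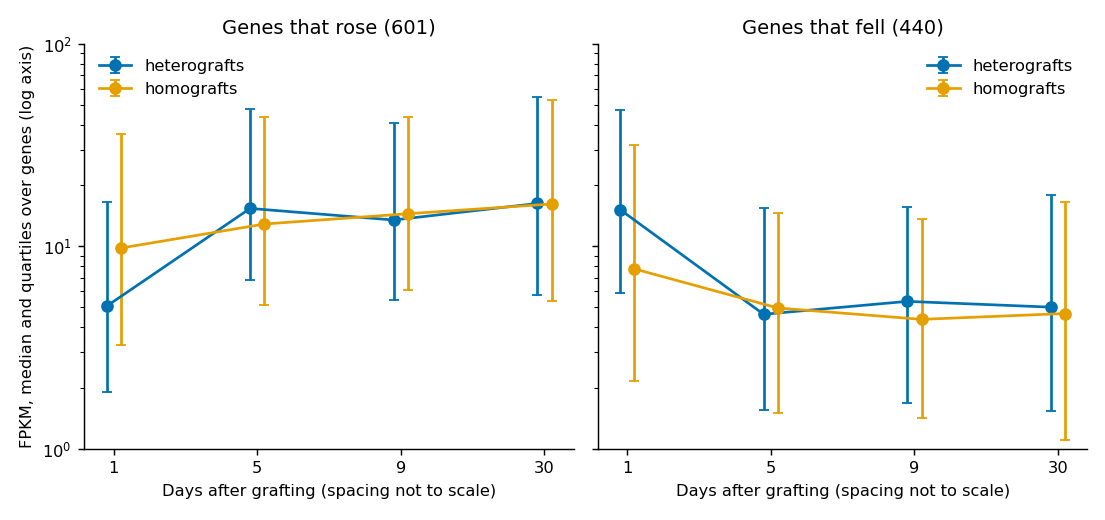
Median FPKM with quartiles over genes (log axis) at 1, 5, 9 and 30 days after grafting, for the 601 genes that rose (left) and the 440 that fell (right) between DSS and DCF. Heterografts are blue and homografts orange. The medians of the risers start at 5.06 in DSS and 9.81 in SSS and lie between 12.9 and 16.3 in the other groups.

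In the step from 9 to 30 DAG, which shares no library with that from 1 to 5 DAG, 1.58% of the genes tested rose and 1.48% fell in the heterografts. Of the 601 risers 56 rose from DCD to DVC (9.32%) and 38 fell (6.32%). DVC was not tested against DCF, so a rise beyond the level at 5 DAG is not shown. Of the 440 fallers 37 rose (8.41%) and 26 fell (5.91%). Both sets thus held genes of either later direction, and neither kept a single course.

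Of the 601 risers, 261 or 43.4% differed between the graft types in the interaction, and of the 440 fallers, 184 or 41.8% did, against 11.7% of all genes tested. The calls and the interaction share the DSS and DCF libraries, so these shares are no independent result. Of those 261 risers, 249 had the higher change in heterografts. Their median FPKM was 7.64 in DSS and between 17.1 and 26.3 in the other 7 groups, SSS (24.8) included. For 165 of the 249 (66.3%) all 3 DSS libraries lay below the other 21. Of the fallers, 160 had the lower change in heterografts, with a median of 14.3 in DSS and between 2.72 and 6.49 elsewhere. The 3 DSS libraries lay above all others for 99 of these (61.9%). The 3 SSS libraries lay below all others for 33 of the 160 (20.6%, against 4.26% of all genes). Of the 249 risers, SSS lay above all others for 8 (3.21%, against 1.58% of all genes). Among all 2879 interaction genes, SSS lay below all others for 602 (20.9%, against 4.26% of all genes) and above for 265 (9.2%, against 1.58%). DSS lay below all others for 347 (12.1%, against 4.01%) and above for 244 (8.48%, against 3.34%). Over all risers the share with DSS below every other library was 38.3% (4.01% of all genes tested), and over all fallers the share with DSS above was 34.1% (3.34% of all genes). DSS took part in choosing all of these genes, and SSS and SCF took part in choosing the 249, the 160 and the 2879. The medians and shares, those of SSS included, are therefore descriptions. What set DSS or SSS apart was not tested.

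Each library was also placed on the line from the mean of SSS to the mean of SCF over all genes tested, where 0 is the homograft at 1 DAG and 1 the homograft at 5 DAG. Left out of its own mean, an SSS library lay at 0.132 ± 0.0504 (SD, n = 3) and an SCF library at 0.893 ± 0.109. The DSS libraries lay at 0.505, 0.259 and 0.456, and the DCF libraries at 0.626, 0.686 and 0.709. On this line both heterograft groups were therefore inside the span of the homografts. The distance of a library from the line was not measured, so the positions do not show heterografts to be intermediate homograft states. The DSS libraries lay above every SSS library and the DCF libraries below every SCF library.

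The tables also hold genes without a single read in the 12 homograft libraries. A total of 39 such genes had 30 or more reads over the 12 heterograft libraries, a choice that did not use the difference between the days. Together they took 27.5, 37.0 and 32.4 RPM (reads per 1000000 reads on genes) in DSS and 27.2, 15.3 and 12.9 RPM in DCF. The summed share was 1.75 times as high at 1 DAG, and 30 of the 39 genes had a lower share at 5 DAG. The first DCF library lay close to the lowest DSS library. DCD held 5.94 to 12.8 RPM and DVC 16.6 to 29.6 RPM. Of the 39 genes, 18 passed the filter, with a median log2 fold change of -0.62 (0.008 over all genes tested). Of the 18, 2 fell and none rose, against 1.79% and 2.45% of all genes. The low sums mean that these genes measure the difference between libraries only roughly. Their part in the calls of the step was not tested.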

How the data were processed

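RNA of 24 graft-union samples was sequenced. Per the study's methods and processing notes, the authors used Cutadapt 1.15 for trimming, HISAT2 2.0.5 for alignment to the Pyrus bretschneideri genome 1.0 and HTSeq 0.9.1 for counting, and deposited FPKM values per gene. Scion and rootstock reads were mapped to this single genome. Whole reads were recovered from the FPKM steps of all 32966 genes above 0 in at least 4 libraries (tolerance 0.0001 reads, 100% recovered) and gave depth and coding length.

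From the FPKM as deposited, log2(FPKM + 1) was fitted in limma 3.58.1 (R 4.3.3) with the mean-variance trend, with 1 mean for each of 8 groups over all 24 libraries. The pseudocount understates changes of low genes. Calls needed a Benjamini-Hochberg adjusted p below 0.05 over all genes tested (two-sided) and a log2 fold change beyond 1 in size, and the interaction at adjusted p below 0.05. The study's methods give 3 biological replicates per group without saying how plantlets were pooled, so p-values measure the spread between these samples. The fit was tested on simulated data.

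The text names the 17 hormone genes, PbBglu13, called qPCR genes, and the 2 largest rises and 2 largest falls among called genes with a mean FPKM of at least 10 in the higher stage and no overlap between libraries. The 6 qPCR genes whose step differed between grafts are named with that test. The comparison, lists and rules were chosen with earlier results of these data known. Groups outside all other libraries, genes without homograft reads and the positions on the homograft line were added after the results were seen. Alternatives were another scaling, pseudocount, filter, trend, set of samples, unadjusted p, the replicate block, voom on recovered reads, and leaving out each library.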

Additional observations from a re-analysis of the deposited data

Results flagged for a closer look

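The step from 1 to 5 DAG differed between heterografts and homografts by the interaction test (limma, adjusted p below 0.05) for 2879 genes. The named genes among them are given here by the heterograft log2 fold change minus that of the homografts. Among hormone genes the difference was 2.45 for the AUX/IAA gene Pbr033492.1, -2.33 for the GH3 gene Pbr030688.1, -2.72 for the SAUR gene Pbr009936.1 and 0.92 for the type-B ARR gene Pbr012127.1. The type-A ARR genes Pbr024916.1 and Pbr002919.1 differed by -1.10 and -1.90.

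Of the qPCR genes, Pbr003641.1 differed by -2.48, Pbr010535.1 by -1.48, Pbr015152.1 by -1.36 and Pbr036247.1 by -2.27. Pbr039935.1 and Pbr015699.1 differed by 1.08 and 1.70 in the other direction. The 2 genes with the largest rises, Pbr016407.1 and Pbr018343.1, differed by 4.48 and 4.49.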

How the results depend on the processing

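The number of genes called in the heterograft step, 1041, stayed within 1.5 times under the alternatives run, between 772 (FPKM of at least 5) and 1326 (pseudocount of 0.1), with 1294 for voom on recovered reads and 899 to 1163 with 1 library left out. The interaction count ran from 2268 to 2968, or 1957 to 2767 with 1 library left out, and the correlation with the homograft step from 0.228 to 0.344. Upper-quartile scaling moved the median of all genes from 0.008 to -0.001.

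Across all genes tested, replicate numbers showed no pairing of libraries: the deviations of same-numbered DSS and DCF libraries correlated at -0.061, -0.04 and 0.035. What the numbers mark is not stated, and single genes can differ from this general picture. Not every library correlated best with its own number, and the fit with the replicate block called 985 genes (550 up, 435 down) and 2268 interactions.

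Among named genes, 3 SAUR genes without a call changed sign with 1 library left out: the log2 fold change ran from -0.11 to 0.36 for Pbr018494.1, from -0.55 to 0.21 for Pbr040904.2 and from -0.24 to 0.39 for Pbr042214.1. With voom, the interaction calls of Pbr030688.1, Pbr009936.1 and Pbr002919.1 were lost at differences of -3, -3.22 and -2.03, and with a pseudocount of 0.1 that of Pbr033492.1 at 3.22. The cause was not tested. Genes under about 1 FPKM are limited by depth.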
